A study of Mus musculus with 6 samples.

Results

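The genes described here encode the contractile apparatus of heart and other striated muscle, together with calcium-handling proteins, muscle creatine kinases and the natriuretic peptides of heart muscle cells. They are 38 genes given by symbol, and all 38 had a locus among the 24402 loci of the deposited table of lung RNA at 12.5 *dpc*. The list was drawn up with the results of the same comparison in view, so its values in *Yap* mutant against control lungs are given as a description and carry no test. RNA came from whole lungs of C57BL/6 wild-type (WT) embryos and of littermates with the genotype Yap-flox/flox; Shh-Cre/+ (Yap-mt), with 3 libraries for each. In the mutants Cre made from the *Shh* locus acts in the lung epithelium, while the mesenchyme, in which muscle and vessels form, keeps *Yap*. The authors deposited 1 value per genotype for each locus, read here as FPKM (fragments normalized to transcript length and library size). Those values show neither the spread between libraries nor their depth, so no difference below was set against replicate error.

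In striated muscle, myosin thick filaments slide along actin thin filaments within sarcomeres, which are bordered by Z-discs and held in the middle by the M-band. Calcium released from the sarcoplasmic reticulum binds to troponin and lets myosin reach actin. Lung at this stage forms smooth muscle around airways and vessels, and heart-type muscle is known from the walls of the large pulmonary veins. The heart itself lies next to the lung in the embryo.

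Of the 38 genes, 37 had a higher value in *Yap* mutant than in WT lungs, and *Tpm2* alone among them had a lower one. For counting, the genotype values had to average 1 FPKM or more, which left 30 of the 38 and 12716 of all loci. With 0.1 FPKM added to both values, 23 of these 30 were at least 2-fold higher in *Yap* mutant lungs, beside 2.15% of all loci that passed, and 15 were at least 8-fold higher, beside 0.37%. None (0) was at least 2-fold lower, beside 1.28% of all loci. The median log2 ratio of the 30 was 2.99, and that of all loci that passed was -0.01. Genes that passed only because of a high *Yap* mutant value had to differ. With the filter set on the WT value alone 20 genes passed, of which 13 were at least 2-fold higher, with a median of 2.85. Of all loci 12634 had at least 1 FPKM in WT, and their share past 2-fold is not given here. Summed over the 38 genes, the values were 538.2 FPKM in WT and 1681 FPKM in *Yap* mutant lungs, or 0.0999% and 0.322% of the sum over all loci. Whole-lung RNA cannot tell more cells of a type from more RNA per cell.

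**Figure D1:**
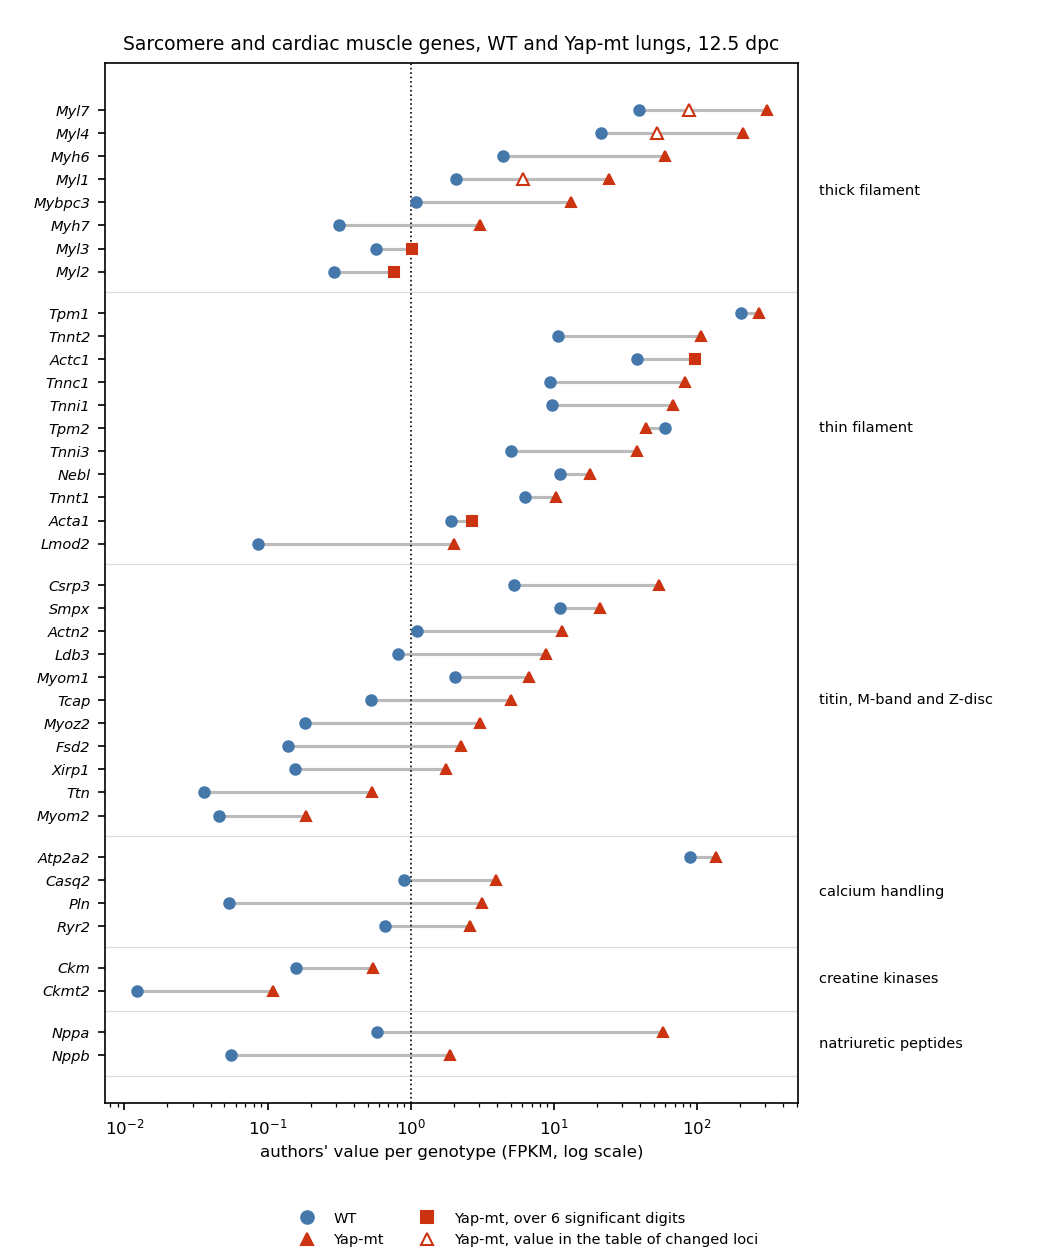
Values of the 38 genes on a log FPKM axis, grouped by role, with circles for WT and filled symbols for *Yap* mutant lungs (1 value per genotype, no error available). Squares mark *Yap* mutant values written with over 6 significant digits, open triangles the second values of *Myl1*, *Myl4* and *Myl7*, and the dotted line 1 FPKM. The WT circle lies to the left of the *Yap* mutant symbol for every gene but *Tpm2*.

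Irregular values were frequent among these genes. The deposit holds 2 tables, a full one and a shorter one with 2395 loci that the authors call changed (the table of changed loci). For *Myl1*, *Myl4* and *Myl7* the WT values are the same in both tables but the *Yap* mutant values are not. *Myl1* is listed at 24.4 FPKM in *Yap* mutant lungs in the full table and at 6.09 FPKM in the shorter one, *Myl4* at 210.3 and 52.6 FPKM, and *Myl7* at 305.9 and 87.8 FPKM. On the log2 scale the second value differs from the first by -2.00, -2.00 and -1.80, respectively. In the full table the values of these 3 genes have 6 significant digits, while 3 of the 38 genes have values of over 6 digits in the shorter one. For *Actc1*, *Acta1*, *Myl2* and *Myl3* the *Yap* mutant value in the full table has over 6 significant digits, where nearly all values of the table have 6 or fewer, and these 4 genes are not in the shorter one, so no second value was at hand. Thus 7 of 38 genes (18.4%) had an irregular value, against 31 of the 24402 loci (0.127%). Of the 6 loci with over 6 digits in the full table, these genes make up 4. Among 25 loci that differ between the tables by over 1%, 11 carry over 6 digits in the shorter table, and for 8 of these the offset is within 0.001 of a multiple of 0.1 on the log2 scale. How these values arose is not given in the sources used here. Values below come from the full table unless the second value is named. Without the 7 genes, 25 of 31 passed, 19 of them at least 2-fold higher, with a median log2 ratio of 3.02.

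**Figure D2:**
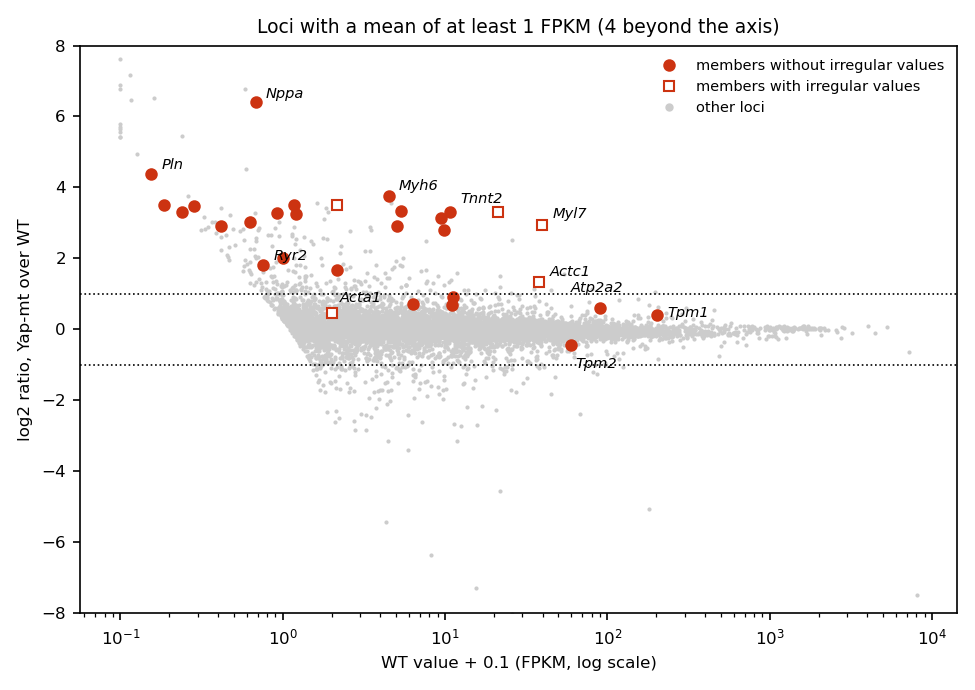
Log2 ratio of *Yap* mutant over WT against the WT value plus 0.1 FPKM, on a log axis, for loci that average 1 FPKM or more (grey) and the 30 sarcomere genes among them (red, open squares for irregular values). Dotted lines mark a 2-fold difference. The edge of the grey cloud at the left comes from the filter, and *Nppa*, *Myh6*, *Tnnt2* and *Myl7* stand above most loci of like WT value, while *Tpm1*, *Tpm2* and *Atp2a2* lie within 1 log2 unit of 0.

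Start-site sequences are shown for 1 or 2 genes of each role but the creatine kinases, taken by *Yap* mutant value among genes with a window, to set genes with a large ratio (*Myl7*, *Tnnt2*, *Csrp3*, *Casq2* and *Nppa*) beside *Tpm1*, which had a small one. Each runs 5′ to 3′ along the gene from 250 bases before to 50 bases after a start annotated by RefSeq on GRCm38.p6. Windows were found for 34 of the 38 genes, and the start lay within 100 bases of the 5′ end of the locus for 26 of them. Windows for *Atp2a2*, *Myom2*, *Tcap* and *Xirp1* were not used here. Capitals mark matches, on either strand, to 5 motifs: GGAATG, the TEAD site that the study searched for, AGATAA, of the kind bound by GATA factors, TATAAA, the CArG box bound by SRF, and the MEF2 site. Where marked, *Myl7* holds GGAATG (minus strand) at -70 to -65 and a CArG box at -61 to -52, with the base before the start as -1. *Tnnt2* holds AGATAA at -166 to -161 and GGAATG at -27 to -22, both on the minus strand. *Tpm1* holds GGAATG at -56 to -51, *Casq2* a MEF2 site at -69 to -60, and *Nppa* TATAAA at -9 to -4. *Csrp3* has no match in its window.
Myl7 (chr11:5898733-5899032, minus strand): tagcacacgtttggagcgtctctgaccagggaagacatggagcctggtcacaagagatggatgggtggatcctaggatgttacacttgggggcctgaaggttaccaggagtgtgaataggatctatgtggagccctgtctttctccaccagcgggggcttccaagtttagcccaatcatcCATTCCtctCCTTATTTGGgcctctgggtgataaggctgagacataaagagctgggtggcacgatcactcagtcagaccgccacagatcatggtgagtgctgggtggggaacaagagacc
Tnnt2 (chr1:135836084-135836383, plus strand): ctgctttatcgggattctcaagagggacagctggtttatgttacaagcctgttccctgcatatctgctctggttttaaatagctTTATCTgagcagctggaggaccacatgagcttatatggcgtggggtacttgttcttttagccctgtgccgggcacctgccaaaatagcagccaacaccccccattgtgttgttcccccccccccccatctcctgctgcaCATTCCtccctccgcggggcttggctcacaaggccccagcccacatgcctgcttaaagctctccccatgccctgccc
Tpm1 (chr9:67049164-67049463, minus strand): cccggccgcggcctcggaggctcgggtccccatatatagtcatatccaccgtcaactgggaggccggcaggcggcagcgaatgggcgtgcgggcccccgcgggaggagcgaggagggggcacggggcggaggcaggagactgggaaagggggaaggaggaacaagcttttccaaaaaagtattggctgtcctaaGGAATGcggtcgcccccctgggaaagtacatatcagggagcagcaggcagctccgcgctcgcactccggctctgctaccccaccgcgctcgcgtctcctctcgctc
Csrp3 (chr7:48848002-48848301, minus strand): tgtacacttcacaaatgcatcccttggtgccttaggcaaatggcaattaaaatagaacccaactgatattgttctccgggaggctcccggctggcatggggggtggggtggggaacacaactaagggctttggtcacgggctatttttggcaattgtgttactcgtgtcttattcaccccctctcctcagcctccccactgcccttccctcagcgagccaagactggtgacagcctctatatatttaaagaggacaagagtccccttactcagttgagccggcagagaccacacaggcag
Casq2 (chr3:102086165-102086464, plus strand): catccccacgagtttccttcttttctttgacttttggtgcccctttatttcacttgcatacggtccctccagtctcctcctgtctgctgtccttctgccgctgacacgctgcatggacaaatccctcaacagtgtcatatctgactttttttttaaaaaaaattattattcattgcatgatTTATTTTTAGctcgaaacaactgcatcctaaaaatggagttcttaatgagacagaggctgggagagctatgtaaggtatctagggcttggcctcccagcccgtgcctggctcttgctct
Nppa (chr4:148000472-148000771, plus strand): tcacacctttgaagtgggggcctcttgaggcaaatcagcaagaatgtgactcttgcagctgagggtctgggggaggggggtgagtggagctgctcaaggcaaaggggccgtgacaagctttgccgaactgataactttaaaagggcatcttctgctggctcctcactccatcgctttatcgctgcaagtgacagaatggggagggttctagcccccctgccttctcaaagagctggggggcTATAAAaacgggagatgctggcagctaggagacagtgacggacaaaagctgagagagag

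Among the 34 windows, 6 (17.6%) held a CArG box, those of *Myl3*, *Myl7*, *Actc1*, *Acta1*, *Myom1* and *Ldb3*, against 1.63% of 32851 windows of the same length. A MEF2 site was found in 4 (11.8%), those of *Mybpc3*, *Ttn*, *Myoz2* and *Casq2*, against 3.19% of all windows. GGAATG stood in 10 (29.4%), among them *Myh6*, *Myl7*, *Tnnt2* and *Tnnc1* but also *Tpm1*, against 14.7%. TATAAA stood in 9 (26.5%) against 13.6%, and AGATAA in 5 (14.7%) against 11.2%. In 0 of the 34 did a CArG box overlap a MEF2 site or TATAAA, and other overlaps were not counted. Median GC content was 56.2% in these windows and 52.7% in all windows. These are matches of letters and not measurements of binding, and no test was made of these shares.

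Thick filament genes were low in WT lungs apart from 2 light chains of atrial type. *Myh6* (chromosome 14, 54941921 to 54966607), the alpha myosin heavy chain, had 4.39 FPKM in WT and 60.2 FPKM in *Yap* mutant lungs, 13.7 times the WT value. *Myh7*, the beta chain, lies 3.756 kb away on the same strand and had 0.316 and 3.06 FPKM. The alpha chain therefore exceeded the beta chain 13.9-fold in WT and 19.7-fold in *Yap* mutant lungs. *Mybpc3*, which encodes cardiac myosin-binding protein C (chromosome 2, 91118144 to 91136516), had 1.08 and 13.3 FPKM.

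The regulatory light chain gene *Myl7*, typical of atrial muscle (chromosome 11, 5896637 to 5898782), had the highest *Yap* mutant value of all 38 genes, with 39.3 FPKM in WT and 305.9 FPKM in mutants. That is 7.77 times the WT value, or 2.23 times with the second value, under which *Tpm1* would be the highest. Its ventricular counterpart *Myl2* had 0.291 and 0.763 FPKM. For the essential light chains, *Myl4*, typical of atrial and embryonic muscle, had 21.3 and 210.3 FPKM, 9.89 times the WT value, or 2.47 times with the second value. The *Myl4* locus spans 84.7 kb against 45.1 kb for the annotated gene, so its values may hold reads from outside the gene. *Myl3*, which is typical of ventricular muscle, had 0.572 and 1.02 FPKM, and *Myl1*, an essential light chain of skeletal and embryonic muscle, had 2.06 and 24.4 FPKM, 11.8 times the WT value, or 2.95 times with the second value. In WT lungs, whose values are regular for all of these genes, *Myl7* exceeded *Myl2* by 135.2-fold and *Myl4* exceeded *Myl3* by 37.1-fold. The 5 light chains all have irregular *Yap* mutant values, so how far their proportions differ between genotypes is uncertain. All 8 thick filament genes were higher in mutants, and the 6 that passed the filter were at least 2-fold higher with either value. Among these 6, *Myh7*, at 0.316 FPKM in WT, passed only through its *Yap* mutant value.

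Among thin filament genes, most troponins had large ratios and the tropomyosins small ones. *Tnnt2*, cardiac troponin T (chromosome 1, 135836334 to 135852268), had 10.7 FPKM in WT and 107.2 FPKM in *Yap* mutant lungs, 10.1 times the WT value. *Tnni1*, the slow skeletal troponin I that embryonic heart also uses, lies 25.364 kb from *Tnnt2* and had 9.76 and 68.1 FPKM. *Tnnc1*, which encodes the troponin C of heart and slow muscle, had 9.37 and 83.0 FPKM. *Tnni3*, cardiac troponin I, shares its locus with *Dnaaf3*, a gene for assembly of ciliary dynein, and the joint value was 4.997 and 38.05 FPKM. How much of it belongs to *Tnni3* is not known. *Tnnt1*, slow skeletal troponin T, lies 1.922 kb from *Tnni3* but had 6.27 and 10.4 FPKM, only 1.66 times the WT value. *Tnnt2* exceeded *Tnnt1* by 1.70-fold in WT and 10.3-fold in *Yap* mutant lungs. *Lmod2*, leiomodin 2 of heart thin filaments, had 0.0865 and 2.01 FPKM.

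The tropomyosins were abundant in both genotypes. *Tpm1* (chromosome 9, 67022593 to 67049342) had the highest WT value of the 38 genes, 203.3 FPKM, with 271.3 FPKM in *Yap* mutant lungs, a log2 ratio of 0.42. *Tpm2* (chromosome 4, 43514705 to 43523635) had 59.9 and 44.1 FPKM, a log2 ratio of -0.44. Both tropomyosin genes are used by smooth muscle and other cells through alternative exons, which a value per locus does not separate. *Nebl*, nebulette, had 10.96 and 17.9 FPKM. For the sarcomeric actins, *Actc1* (cardiac alpha actin) had 37.98 and 96.1 FPKM and *Acta1* (skeletal alpha actin) 1.90 and 2.68 FPKM, where the *Yap* mutant values are among the irregular ones. Log2 ratios of the 4 genes with such long values lay between 0.47 and 1.34. *Actc1* and *Acta1* are near-identical in coding sequence, so reads may be split between them.

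At the Z-disc, *Csrp3*, the muscle LIM protein (chromosome 7, 48830398 to 48848051), had 5.23 FPKM in WT and 54.0 FPKM in *Yap* mutant lungs, 10.3 times the WT value. *Actn2*, sarcomeric alpha-actinin, had 1.11 and 11.4 FPKM, *Ldb3*, a PDZ and LIM domain protein, 0.818 and 8.80 FPKM, *Tcap* (telethonin) 0.529 and 4.99 FPKM, and *Myoz2*, which binds calcineurin, 0.183 and 3.07 FPKM. These 5 genes had log2 ratios between 3.02 and 3.49. *Fsd2* had 0.14 and 2.26 FPKM and *Xirp1*, the actin-binding protein Xin, 0.156 and 1.76 FPKM. The annotated *Xirp1* gene overlaps *Cx3cr1* on the same strand, so its value may hold reads of both. The M-band gene *Myom1* had a smaller ratio, with 2.05 and 6.73 FPKM, and the annotated gene overlaps *Myl12a* on the other strand. *Smpx*, on chromosome X, had 11.1 and 21.2 FPKM, just under 2-fold. *Ttn*, the giant spring protein titin, was low in both genotypes at 0.0358 and 0.539 FPKM, as was *Myom2* at 0.0458 and 0.186 FPKM. Of the 11 genes of this group 8 passed the filter, and 7 of those were at least 2-fold higher, beside 2.15% of all loci that passed. *Ldb3*, *Tcap*, *Myoz2* and *Fsd2* were under 1 FPKM in WT and passed only through the *Yap* mutant value, so they had to be higher. The 4 genes of the group with at least 1 FPKM in WT were *Csrp3*, *Actn2*, *Myom1* and *Smpx*, of which *Smpx* was under 2-fold.

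Calcium-handling genes differed among themselves. *Atp2a2*, the calcium pump SERCA2 that many cell types use (chromosome 5, 122453513 to 122502261), had 89.8 and 136.2 FPKM, 1.52 times the WT value. Its inhibitor phospholamban, *Pln*, had 0.0543 and 3.14 FPKM, so its level was 0.000604 of that of *Atp2a2* in WT and 0.0231 in *Yap* mutant lungs. The *Pln* locus of the table spans 106.4 kb (chromosome 10, 53273465 to 53379903) against 8.321 kb for the annotated gene, which lies within *Cep85l* on the opposite strand, so its value is uncertain. The same holds in part for *Myh7*, *Myl2*, *Myl3*, *Tnnc1*, *Nebl* and *Myom1*, since these make up, with *Pln*, the 7 genes that overlap a named gene on the other strand, and whether strand was used in counting is not stated. *Ryr2*, the calcium release channel of heart muscle, had 0.66 and 2.60 FPKM. *Casq2*, the cardiac calsequestrin that buffers stored calcium, had 0.903 and 3.94 FPKM.

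*Nppa*, the atrial natriuretic peptide (chromosome 4, 148000746 to 148002067), had the largest ratio of the 38 genes, with 0.581 FPKM in WT and 57.9 FPKM in *Yap* mutant lungs. This is 99.6 times the WT value, or a log2 ratio of 6.41 with 0.1 FPKM added to both, and it ranked 9 among the 12716 loci that passed. *Nppb*, the related peptide gene 13.516 kb away, had 0.0559 and 1.87 FPKM and did not pass the filter. The muscle creatine kinases were low, at 0.159 and 0.548 FPKM for *Ckm* and 0.0122 and 0.109 FPKM for mitochondrial *Ckmt2*.

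With no pseudocount, 15 of the 38 genes, *Tnnt2* included, had a ratio within 0.5 log2 units of that of *Tnnt2*, between 7.61 and 13.7 times the WT value. Of these 10 had at least 1 FPKM in WT lungs and 3 had irregular values. The 3 were *Myl1*, *Myl4* and *Myl7*, which with the second values had 2.95, 2.47 and 2.23 times the WT value and so fell outside that range. The share of all loci in that range is not given here. Set against *Tnnt2* within each genotype, the level of *Csrp3* was 0.491 in WT and 0.503 in *Yap* mutant lungs, that of *Actn2* 0.104 and 0.107, and that of *Tcap* 0.0496 and 0.0466. The level of *Nppa* relative to *Tnnt2* was 0.0545 and 0.540, and that of *Tpm1* 19.1 and 2.53. Since 10 genes under 1 FPKM in WT passed the filter only through a high *Yap* mutant value, levels were compared over the 20 genes with at least 1 FPKM in WT lungs. Of these, the 5 at 30 FPKM or more had a median log2 ratio of 0.60, and the 15 others one of 3.13. The WT value enters both measures, so this is a description. On the scale of differences, the 5 abundant genes were together 423.3 FPKM higher in mutants and the 33 others 719.4 FPKM higher. Both sums hold irregular values, those of *Myl7* and *Actc1* in the first and of the other 5 genes in the second.

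**Figure D3:**
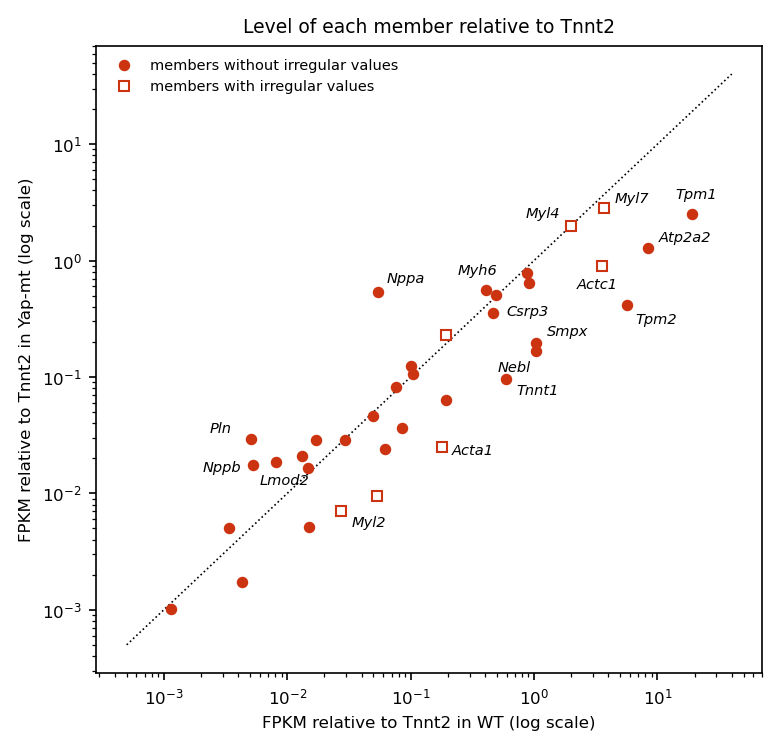
FPKM of each of the other 37 genes divided by that of *Tnnt2*, in WT (x axis) and *Yap* mutant lungs (y axis), both on log scales, with open squares for irregular values. Genes on the dotted line have the same proportion to *Tnnt2* in both, such as *Csrp3* (0.491 and 0.503), while *Nppa* lies above it and *Tpm1*, *Tpm2*, *Atp2a2*, *Nebl*, *Smpx* and *Tnnt1* lie below.

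Other striated muscle genes were taken from lists written down together with the members. Of 38 further sarcomere and Z-disc genes 19 passed the filter, and 9 of them were at least 2-fold higher and 0 at least 2-fold lower. *Ankrd1*, a cardiac ankyrin repeat protein, had 1.53 and 19.0 FPKM, and *Trim55*, a ubiquitin ligase of the sarcomere, 0.854 and 7.69 FPKM. Among 18 excitation-contraction coupling genes that passed, 7 were at least 2-fold higher, including *Trdn* (triadin) at 0.228 and 2.85 FPKM and *Casq1*, a calsequestrin best known from skeletal muscle, at 2.49 and 17.6 FPKM. Of 11 cardiac ion channel and gap junction genes 5 were at least 2-fold higher, among them *Kcnj5* and *Kcnj3*, which encode the atrial potassium channel that answers to acetylcholine, at 0.586 and 3.98 FPKM and at 0.367 and 2.23 FPKM. Of 14 muscle metabolism and chaperone genes 9 were at least 2-fold higher, with *Cox6a2*, the respiratory chain subunit isoform of heart and skeletal muscle, at 1.80 and 18.9 FPKM. These lists had medians of 0.87, 0.43, 0.90 and 1.54 on the log2 scale, in this order. *Trim55*, *Trdn*, *Kcnj5* and *Kcnj3* were under 1 FPKM in WT and, like others not named here, passed only through the *Yap* mutant value. Of all loci that passed, 2.15% were at least 2-fold higher.

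Cardiac transcription factors were mostly close to their WT value, with 3 of 15 at least 2-fold higher and 1 at least 2-fold lower. The higher ones were *Nkx2-5*, which marks cardiac muscle and is also made in other organs, at 0.526 and 5.41 FPKM, *Shox2*, a factor of the sinus node and pulmonary vein muscle, at 1.05 and 7.07 FPKM, and *Tbx20* at 1.18 and 5.92 FPKM. Of these, *Nkx2-5* passed the filter only through its *Yap* mutant value. *Myocd*, the coactivator of SRF in cardiac and smooth muscle, was the lower one at 6.39 and 2.63 FPKM. *Gata4* had 10.8 and 19.97 FPKM and *Hand2* 3.43 and 4.55 FPKM. Chamber markers differed among themselves. All 8 atrial markers passed and 5 were at least 2-fold higher, 3 of which are members. Within 2-fold were *Gja5*, at 9.47 and 17.8 FPKM, and *Nr2f2* and *Tbx5*, which lung mesenchyme also makes. Of the 6 ventricular markers 3 passed, with a median log2 ratio of -0.06. *Myh7*, which was under 1 FPKM in WT, was the one at least 2-fold higher. *Mpped2* had 23.5 and 17.7 FPKM and *Hey2* 1.91 and 1.84 FPKM. *Irx4*, which did not pass, had 0.0334 and 0.0576 FPKM. Summed, the ventricular list had 26.6 FPKM in WT and 24.4 FPKM in *Yap* mutant lungs.

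Defining markers of skeletal and smooth muscle did not share the high values. Of 20 skeletal muscle markers 3 passed the filter, with 0 at least 2-fold higher. *Mylpf*, the middle one of these 3, had 4.25 FPKM in WT and 2.89 FPKM in *Yap* mutant lungs, or 2.05 FPKM with the second value. *Myod1* had 0.702 FPKM in WT and 0.44 FPKM in *Yap* mutant lungs, *Myog* 1.51 and 0.826 FPKM and *Myf5* 0.155 and 0.0333 FPKM. The list summed to 12.9 FPKM in WT and 10.8 FPKM in *Yap* mutant lungs. For smooth muscle, 10 of 11 genes passed, and 4 were at least 2-fold lower: *Actg2* at 68.0 and 13.1 FPKM, *Myh11* at 16.8 and 3.73 FPKM, *Acta2* at 125.2 and 59.9 FPKM and *Tagln* at 40.9 and 19.6 FPKM. The smooth muscle list summed to 573.2 and 396.3 FPKM.

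Markers of other cells that lie in or next to the lung were read in the same way. Lung epithelial genes had a median log2 ratio of -0.61, with 2 of 14 at least 2-fold lower, and summed to 638.6 and 574.8 FPKM. *Nkx2-1* had 61.9 and 35.9 FPKM, while *Sftpc*, at 28.4 and 55.8 FPKM, and *Id2*, at 117.7 and 211.0 FPKM, had higher values in *Yap* mutant lungs. Medians were 0.31 for 9 epicardial and mesothelial loci (*Wt1* 10.3 and 12.9 FPKM), 0.18 for 9 endothelial and endocardial loci, 0.02 for 11 lung mesenchymal loci and 0.15 for 8 erythroid loci. The liver list had 3 of 4 loci at least 2-fold higher, with *Afp* at 5.42 and 22.3 FPKM, but *Alb* at 1.28 and 1.14 FPKM. Summed, the liver list had 9.49 FPKM in WT and 41.6 FPKM in *Yap* mutant lungs. *Ddx3y*, a Y-linked gene looked up afterwards, had 0.0163 and 10.2 FPKM, and *Xist*, an X-linked RNA of female cells, had 97.0 and 50.4 FPKM. The sex of the embryos is not given by the labels. *Ddx3y* RNA was nearly absent from WT lungs only, so sex and genotype cannot be fully told apart here. *Yap1* itself had 76.1 and 65.6 FPKM, from tissue of which only the epithelium loses it. Whether tissue from outside the lung, the sex of the embryos or the share of each cell type has a part in the sarcomere values was not tested.

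**Figure D4:**
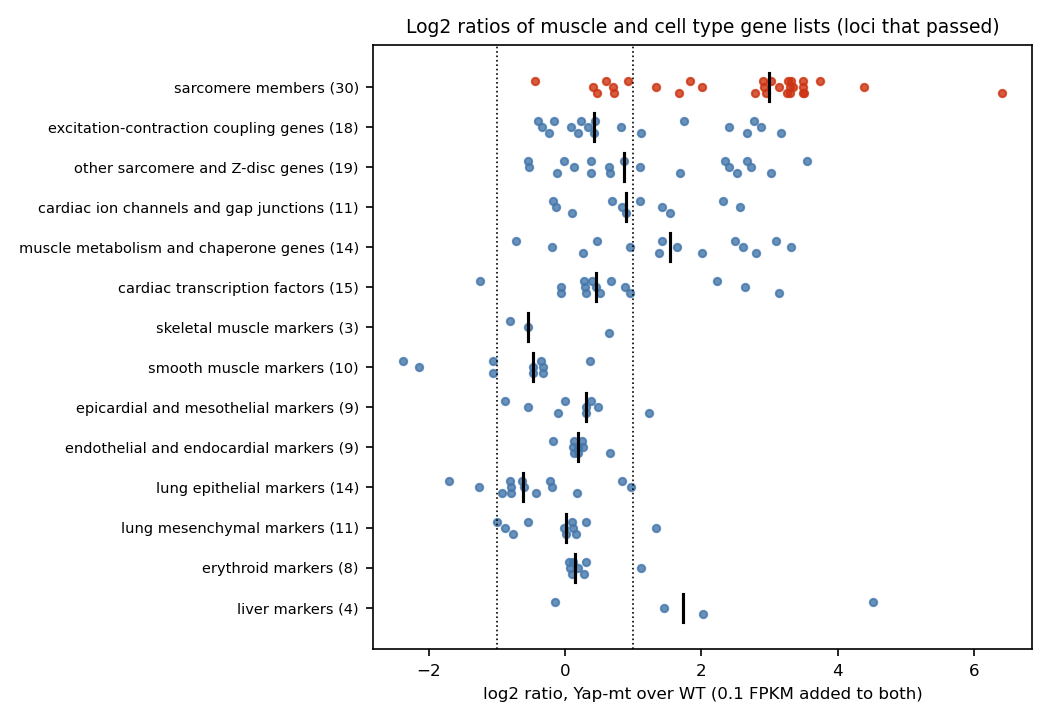
Log2 ratios of *Yap* mutant over WT for single loci (points) and their medians (bars), for the 30 sarcomere genes that passed (red) and for other lists without these genes (blue, number of loci in brackets). Dotted lines mark a 2-fold difference. The sarcomere median is 2.99 and the metabolism and chaperone list has 1.54. The smooth muscle list (-0.47), the skeletal muscle list (-0.54, from 3 loci) and the epithelial list (-0.61) lie below 0. Irregular values are not marked here.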

How the data were processed

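Whole-lung RNA from 3 WT and 3 Yap-mt samples at 12.5 *dpc* was sequenced as stranded paired-end libraries. The submitters' processing notes name TopHat, Cuffdiff and mm10, with versions not given in the sources used here. The authors deposited FPKM as 1 value per genotype, in a table of all loci (the full table) and a shorter one. The unit was inferred from the Cuffdiff layout. Depth per library and spread between libraries are unknown, and no test was made. The tables also hold the authors' log2 fold changes and p-values, which were not used. Columns of other samples numbered 0.

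Log2((Yap-mt + 0.1)/(WT + 0.1)) was computed, and 2-fold calls were made at a mean of at least 1 FPKM. Since loci count their starts from 0 (9306 of 20915 match RefSeq starts after adding 1, 617 without), 1 was added. Members and lists were chosen with earlier results of these data known. All 38 members are named. From other lists, names are defining markers fixed by rule or among the 4 largest log2 ratios of a list. Exceptions are *Irx4*, *Gja5*, *Nr2f2*, *Tbx5*, *Id2*, *Ddx3y* and *Xist*, chosen after their values were seen. Counting was tested on simulated data. Python 3.11.15, numpy 2.4.6, pandas 2.3.3, scipy 1.17.1 and matplotlib 3.10.9 were used.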

Additional observations from a re-analysis of the deposited data

How the results depend on the processing

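No paired analysis was possible because each genotype has 1 value and the columns carry no replicate numbers, so libraries could not be left out either. A median or summed ratio was taken to have moved when it changed by 0.1 or more on the log2 scale, and a count when it changed by over 1.5 times. The median log2 ratio of 2.99 was 3.18 with a pseudocount of 0.01 FPKM, 1.88 with 1 FPKM, 2.88 with no filter, 2.85 with at least 1 FPKM required in WT and 2.85 with the values of the table of changed loci. The count of 23 genes at least 2-fold higher was 13 of 20 with at least 1 FPKM required in WT, and between 19 and 28 under the other alternatives, which include calls at 1.5-fold (27) and 4-fold (20). The count of genes at least 2-fold lower was 0 under each. The summed ratio of 3.12 was 2.39 with the values of the table of changed loci and 2.39 without the irregular genes. Equal sums, median centring and loci with a single symbol moved none of these. No gene changed direction, and 6 of 316 comparisons of a single gene crossed 2-fold (*Ckmt2* and *Myom2* with 0.01 FPKM, *Myom2* with equal sums, and *Ckm*, *Myl2* and *Ttn* with 1 FPKM). Low values limit *Ttn*, *Myl2*, *Ckm*, *Ckmt2* and *Myom2*, which were under 1 FPKM in both genotypes. Chosen after seeing the data, the count within 0.5 log2 units of *Tnnt2* was 15 with no pseudocount or 0.01 FPKM and 18 with 0.1 FPKM.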
